A study of Macaca mulatta with 11 samples.

Results

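The long unmethylated valleys were 160 stretches of at least 3000 bp in which the DNA of the rhesus macaque (Macaca mulatta) prefrontal cortex carried almost no cytosine methylation. They were taken from 140730 regions, each a run of 5 or more measured cytosines with neighbours at most 200 bp apart, split every 1000 bp. In 17549 of these regions the pooled methylation level, the methylated counts over all counts of the 11 animals, was under 5%. Kept regions at most 500 bp apart with no other region between them were merged, which gave 12591 stretches. Of these, 160 reached 3000 bp and are the valleys, 3832 were shorter merged stretches, and 8599 were single regions that merged with no other. The valleys were thus chosen by their level, so every level inside them is a description and carries no test.

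Each of the 11 animals gave 1 library, captured with the SureSelect XT Human Methyl-Seq probes, which were designed on the human genome, from DNA isolated with the Qiagen AllPrep kit from area 46 of the prefrontal cortex. All tissue was ethanol-naïve, a biopsy made before any drinking, so no group here had been exposed to alcohol. Each animal's label gives an EtOH value for a later period of 6 months, from 1.69 to 4.31 with no stated unit, called intake below, and an age of 5.02 to 5.44, also with no unit. Cohort 10 held 2 animals, aged 5.02 and 5.08 with intakes of 2.11 and 3.19, and cohort 14 held 9 animals, aged 5.18 to 5.44 with intakes of 1.69 to 4.31. The cohorts do not overlap in age, and an effect of the cohort and one of age cannot be told apart. The question posed by the labels and the series' title is whether methylation before drinking relates to later intake.

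In mammalian genomes most CpG cytosines are methylated, and CpG-dense promoters are the main exception. A methylation valley, also called a canyon, is an unmethylated stretch much longer than a usual CpG island. In human and mouse cells such valleys are known for holding genes of developmental regulators, many of them transcription factors, and for being covered by Polycomb marks where those genes are silent. No genome or annotation of the files' build was used here, so the valleys are given by position, in the files' coordinates, and not by gene. The tissue was bulk cortex, and a small share of methylated cells and a low level in every cell cannot be told apart.

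The libraries held 479979855 to 934657900 counts, or 154.1 to 300.04 per position, over 3115109 listed positions. No listed methylated count was under 1 and no total was under 12, and in valleys the methylated count stood at exactly 1 at 27.3% to 41.0% of positions, depending on the animal. Values were therefore also computed with methylated counts lowered by 1 and totals by 2 (called 1 and 2 taken from the counts below), which removes 0.321 to 0.624 percentage points from an animal's mean valley level. Animals 3, 6, 7 and 8 of cohort 14 stood apart in another way. At 84 to 152 valley positions each, their level was over 20% while all other animals were under 10%, against 9 to 58 such positions in each of the other 7 animals. These were 0.249% to 0.451% of valley positions, against 0.0267% to 0.172%. The same 4 animals stood apart in single regions, with 0.331% to 0.523% of positions against 0.0423% to 0.223%.

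The valleys covered 594407 bp and 33727 positions, 1.08% of those listed, and made up 1.27% of the unmethylated stretches. Their lengths had a median of 3447.5 bp with quartiles of 3200.5 and 3951.5 bp. Most lay near the minimum: 83 valleys were under 3500 bp, 30 were over 4000 bp and 9 were over 5000 bp. On the near side of the length threshold, 23 stretches of 3000 to 3097 bp had pooled levels of 2.48% to 4.14% with a median of 3.24%. Just short of it, 65 stretches of 2901 bp or more but under 3000 bp had 2.25% to 4.55% with a median of 3.14%. The length that defines a valley thus cuts through a continuous range of stretches.

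The level threshold had a similar place. The 655 regions that make up the valleys had pooled levels of 1.99% up to the limit of 5%, with a median of 2.92%, and 114 of them were over 4%. The 149 measured regions that bordered a valley within 500 bp had 5.06% to 92.1% with a median of 10.9%, and 68 of them were under 10%. Many valleys therefore ended in lightly methylated DNA, and 11 of these bordering regions were over 50%.

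The longest valley was chr3:38527358-38535437, with 8080 bp and 434 positions. Its level was 2.19% in the lowest animal, 2.66% in the median animal and 3.61% in the highest, with a mean of 2.78% ± 0.374 (SD, n = 11). The next was chr4:136547283-136554709, with 7427 bp but only 266 positions, at 1.57%, 2.44% and 3.14% in the lowest, median and highest animal. Neither had a position over 20% in the pooled counts.

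After these in length, chr11:4364528-4371353, had 6826 bp and levels of 3.04%, 3.24% and 4.202% in the lowest, median and highest animal. It was followed by chr5:29765127-29771375 with 6249 bp at 1.99%, 2.94% and 3.61%. Next came chr13:36654083-36660197, a stretch of 6115 bp at 2.49%, 3.12% and 3.84%. A second stretch on chromosome 5, chr5:130895078-130901094, had 6017 bp and a mean of 2.40% ± 0.385 (SD, n = 11). It had the lowest mean of the 10 longest in the counts as deposited, but with 1 and 2 taken from the counts it was at 2.16%, above the valleys at chr7:147730761-147736169 (2.08%) and chr4:136547283-136554709 (2.09%).

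Chromosome 7 held 3 of the 10 longest valleys. Of these, chr7:52587110-52592667 spanned 5558 bp at 3.91% ± 0.468, and chr7:147730761-147736169, spanned 5409 bp at 2.50% ± 0.523 (SD, n = 11 each). The other, chr7:44472077-44477603, carried 425 positions in 5527 bp and was the densest of the 10. It was at 3.54%, 4.36% and 5.02% in the lowest, median and highest animal and was the most methylated of the 10. The tenth, chr16:49766112-49770823, had 4712 bp at 3.85% ± 0.387 (SD, n = 11). In all 10, animal 1 of cohort 10 was the lowest and animal 6, 7 or 8 of cohort 14 was the highest.

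**Figure D1:**
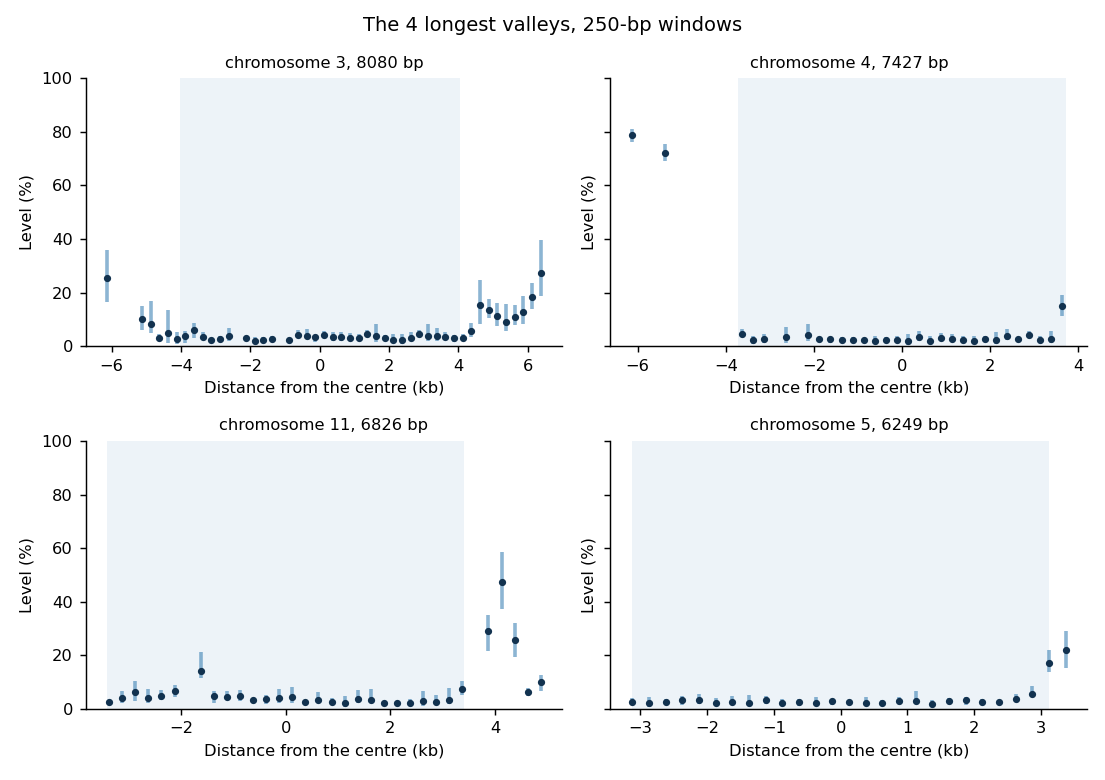
Methylation along the 4 longest valleys. The x axis is the distance from the valley's centre in kb and the y axis the level in %, points are means over the 11 animals in 250-bp windows, bars run from the lowest to the highest animal, and the shaded band is the valley. Of the windows centred in the bands, the mean was under 5% in 29 of 30 (chromosome 3), 27 of 28 (chromosome 4), 23 of 27 (chromosome 11) and 23 of 24 (chromosome 5); the highest were 14.96% over 4 positions at an edge of the chromosome 4 valley and 14.1% over 3 positions inside the chromosome 11 valley.

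The density of measured cytosines in valleys was near that of single unmethylated regions. They had 3.09 to 10.5 positions per 100 bp with a median of 5.65. For equal lengths, the 403 pieces of valleys with 900 bp or more had a median of 6.19 positions per 100 bp, against 6.47 in 3066 single regions of that length and 4.13 in 15763 regions of that length at or above 5%. The sparsest valley was chr17:65732125-65736041, at 3.09 positions per 100 bp. Across the 160 valleys the level went with density (r = 0.358) and had little relation to length (r = -0.068). These are descriptions over valleys that share all libraries.

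Single methylated cytosines were rare inside valleys. Over all 33727 positions, 95 (0.282%) had a pooled level over 20%, against 2913 positions (0.766%) in single regions. Edges made up more of the single regions: 114934 of their 380373 positions lay 0 to 99 bp inside an edge, against 1882 in valleys. At that distance 97.56% of valley positions were under 20%, against 97.86% in single regions. From 250 bp to under 500 bp inside, it was 99.73% against 99.92%. At equal distance from the edge, valleys thus held no smaller share of such positions. Of the 95, 46 lay within 100 bp of a valley's edge, and 18 were over 20% in each of the 11 animals. No position of this kind was found in 99 of the valleys.

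The valleys lay on all 20 measured chromosomes. Chromosomes 2 and 5 held 14 each, and chromosome 19 held 2. Set against the unmethylated stretches on the same chromosome, valleys made up 14 of 511 on chromosome 5 (2.74%) and 2 of 950 on chromosome 19 (0.211%). In 1 case 2 valleys lay within 50 kb of each other, at chr3:181449463-181460766. Another unmethylated stretch of any length lay within 50 kb of 62 valleys (38.8%), against 60.9% of single regions. Within 10 kb it was 25% of valleys and 26.7% of single regions, and within 5 kb the order was the other way, with 22.5% of valleys and 18.7% of single regions. Differences in placement were not tested.

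The first comparison asked how the DNA around valleys differs from the DNA around single unmethylated regions. It was less methylated around valleys in every animal. Positions more than 500 and up to 2500 bp outside valleys averaged 20.9% ± 0.636 (7334 positions), against 30.6% ± 0.287 outside single regions (255070 positions; SD, n = 11 each). The rule used some of these levels, since a region at or above 5% that started within 500 bp ended a stretch, and such bordering regions held 35.0% of the positions outside valleys and 37.2% of those outside single regions. The test was therefore made without the bordering regions, a choice made after seeing the data. The means were then 23.0% ± 0.709 outside valleys and 32.3% ± 0.252 outside single regions (SD, n = 11 each). The difference was -9.35 ± 0.508 percentage points (SD) and lay between -9.88 and -8.34 in the 11 animals (two-sided exact sign-flip permutation test, p = 0.000977, the smallest that 11 animals allow).

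The size of this difference depended on the measure and the distance. With the median over positions in place of the mean it was -0.859 points without bordering regions (9.68% against 10.5%), still below 0 in 11 of 11 animals. More than 1500 bp outside, where no region that bordered the stretch itself can reach, it was -15.4 ± 0.407 points up to 2500 bp (22.0% against 37.4%; exact sign-flip permutation test, p = 0.000977, n = 11), and -11.2 points by the median. The animals measure the same positions, so these tests cover the spread between animals and not that between valleys.

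Outside valleys the level settled lower. Just inside the edge, positions at 0 to 99 bp averaged 5.45%, and from 500 bp inward the mean was between 3.37% and 3.47%. Outside valleys the mean was 9.04% in the first 250 bp, 12.5% from there to 500 bp and 18.6% from there to 1000 bp. It then moved between 20.1% and 27.0% out to 10 kb, with no steady climb. Outside single regions it was 6.94% in the first 250 bp and 24.7% between 500 and 1000 bp, and levelled at 39.9% to 41.4% beyond 2500 bp. Shorter merged stretches, which were built by the same merging, were nearer to single regions, with 41.8% between 2500 and 3500 bp, where valleys had 25.5%. Against these shorter stretches the difference between 500 and 2500 bp, without bordering regions, was -13.3 points.

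**Figure D2:**
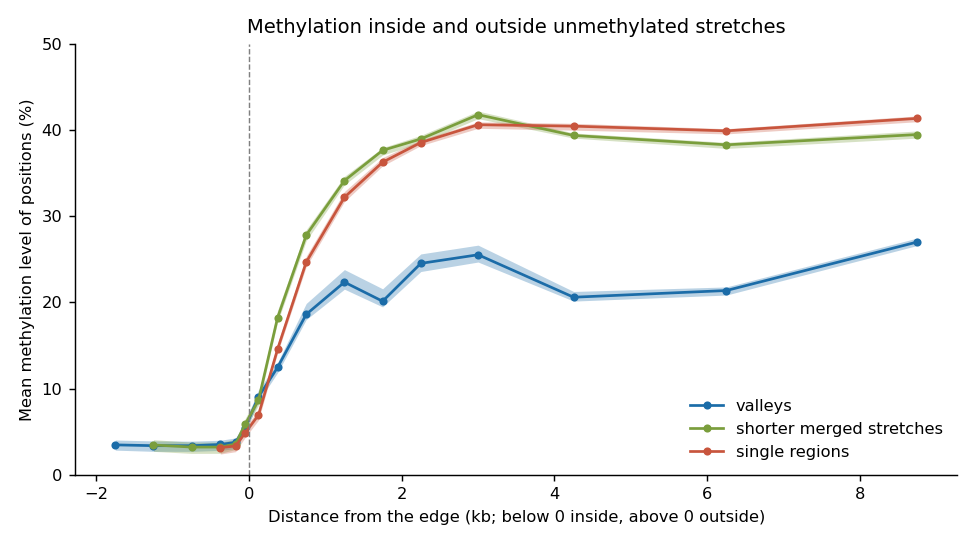
Methylation by distance from the edge. The x axis is the distance in kb, below 0 inside and above 0 outside, the y axis is the mean level of positions in %, lines are means over the 11 animals and the bands run from the lowest to the highest animal. Outside valleys (blue) the mean stays between 18.6% and 27.0% from 500 bp to 10 kb, while single regions (red) and shorter merged stretches (green) lie between 38.3% and 41.8% beyond 2500 bp.

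The surroundings, bordering regions included, differed widely from one valley to the next. On 190 valley sides with 5 or more positions between 500 and 2500 bp, the quartiles of the side's level were 9.77% and 50.6%, and the median was 24.7%, against a median of 39.0% over 9460 sides of single regions. Of the valley sides, 41.6% were under 20% and 26.3% were over 50%, against 30.5% and 40.7% of the sides of single regions. Both sides could be read in 68 valleys. Both were under 20% in 17 of these, exactly 1 was over 50% in 26, and both were over 50% in 3. The capture left 138 of the 320 valley edges (43.1%) with nothing measured next to them, against 49.2% of the edges of single regions. For the 105 valleys with such an edge, the length is the length that was measured and may be a lower bound.

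Positions inside valleys that belonged to no region of 5 or more had levels that the choice did not use. They lay in gaps of at most 500 bp between regions chosen for a level under 5%, so their reading is not independent of the choice. There were 19 such positions in 10 valleys. They averaged 4.37% ± 0.624, against 75.9% ± 0.623 at 275104 positions outside valleys that were also in no region (SD, n = 11 each). The difference was -71.5 ± 0.922 points and lay below 0 in 11 of 11 animals (two-sided exact sign-flip permutation test, p = 0.000977). The same 19 positions were read in each animal, so this test covers the spread between animals and not that between positions. The compared positions were not matched for lying in gaps between unmethylated regions. Pooled over animals, 14 of the 19 were under 5% and the highest was 12.9%. Against the 887 such positions within 10 kb of a valley, which averaged 58.3%, the difference was -53.9 points. Where a cytosine could be read in the gaps that the merging bridged, it was thus mostly unmethylated too.

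Read depth was also higher in valleys. The mean was 221 ± 44.5 counts per position in valleys and 184 ± 35.2 in single regions (SD, n = 11 each). The difference was 36.8 ± 9.41 counts and lay above 0 in 11 of 11 animals (two-sided exact sign-flip permutation test, p = 0.000977). Against single regions of 900 bp or more it was 22.3 counts. Levels in valleys therefore rest on somewhat more reads than those in single regions. Total counts are also the denominator of the pooled level that the rule used, so depth is not independent of the choice. The same positions were read in each animal, so the depth test covers the spread between animals and not that between valleys.

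The rule was also applied without each animal in turn. With 10 animals there were 155 to 165 valleys, and 97.0% to 100% of them were under 5% in the animal left out. The lowest share was for animal 8 of cohort 14, with 159 of 164, and the highest level in any left-out animal was 5.29%. In the full set, 157 of the 160 valleys were under 5% in each animal. The 3 exceptions were chr1:161123772-161126927, with a highest animal at 5.20%, chr2:86985704-86988780, at 5.07%, and chr7:44472077-44477603, at 5.02%.

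Animals differed little in any valley, and they differed together. The SD between animals of pieces of 900 bp or more had a median of 0.523 points in valleys, 0.560 in single regions and 2.21 in regions at or above 5%. A range over 5 points was seen in 1 of 403 valley pieces, in 19 of 3066 single regions and in 10840 of 15763 regions at or above 5%. The low level bounds the spread in the first 2 sets. Over the 160 valleys, animals 1 and 2 of cohort 10 had mean levels of 2.43% and 2.94%. The 9 animals of cohort 14 ran from 2.86% in animal 4 over a median of 3.35% to 3.66% in animal 6. Animal 1 of cohort 10 was lowest in 141 of the 160 valleys, and animal 6, 7 or 8 of cohort 14 was highest in 143.

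The single regions had a similar order of animals. There animal 1 of cohort 10 had the lowest mean, at 2.67%, and animal 6 of cohort 14 the highest, at 3.83%. Across the 11 animals the mean of valleys and the mean of single regions had r = 0.991, from the same libraries and the same listing of counts. With 1 and 2 taken from the counts it was 0.9995. As deposited, valleys were below single regions in 11 of 11 animals, by -0.240 to -0.0851 points. With 1 and 2 taken from the counts they were above them in 11 of 11 animals, by 0.107 to 0.152 points, so the data give no direction for this difference. The counts taken off made up 0.321 to 0.624 points of the level in valleys and 0.534 to 0.996 points in the less deeply read single regions.

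**Figure D3:**
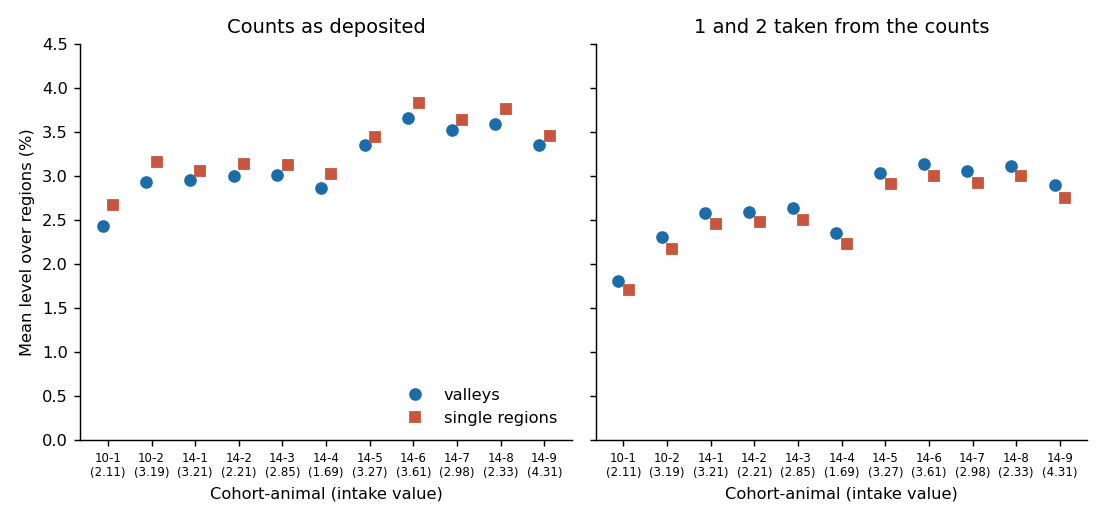
Mean level per animal over the 160 valleys (circles) and over the 8599 single regions (squares), in %, from the counts as deposited (left panel) and with 1 and 2 taken from the counts (right panel). The x axis gives cohort, animal and, in brackets, intake; the valley points run from 2.43% to 3.66% on the left, and valley points lie below single-region points there and above them on the right.

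The widest differences between animals over a whole valley were still small. In chr20:54432204-54435237 the lowest, median and highest animals had 2.32%, 3.06% and 4.78%, and in chr20:43393075-43396095 they had 2.27%, 3.14% and 4.63%. The values were 1.74%, 2.99% and 4.10% in chr14:11468112-11471934, and 1.86%, 2.65% and 3.99% in chr13:39158595-39161737. In these 4 the lowest was animal 1 of cohort 10 and the highest was animal 6 or 7 of cohort 14, as in most valleys. The fifth, chr18:64667051-64671040, went the other way. Its lowest animal was animal 3 of cohort 14 at 2.44%, and its highest was animal 1 of cohort 10 at 4.66%.

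The difference in the chromosome 18 valley lay in 1 short run of its interior. In 500-bp windows with 10 or more positions, lying at least 500 bp from both edges, the range between animals had a median of 2.05 points in 762 windows and passed 5 points in 14. The window with the widest range, 8.04 points, was in this valley. Its run chr18:64669124-64669312 spans 189 bp and 14 positions and was picked out after its values were seen. In this run animals 1 and 2 of cohort 10 had levels of 19.1% and 12.5%. In cohort 14, animals 4, 2, 8 and 9 had 14.8%, 13.8%, 10.9% and 10.3%. Animals 1, 5, 6, 7 and 3 of cohort 14 had 5.45%, 3.19%, 2.99%, 2.66% and 2.13%. The run was thus over 10% in 6 animals from both cohorts and under 6% in the other 5. Summed over the rest of the valley, the 11 animals lay between 1.79% and 3.19%.

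Within the run, 11 of the 14 positions had a range over 15 points. The widest was at position 64669258, with 30.6% in animal 1 of cohort 10 and 0.702% in animal 5 of cohort 14. Positions 64669205 and 64669239 stayed low in all animals, at most at 8.28% and 6.97%. Each animal had at least 154 counts at every position of the run and at least 4083 over the whole run.

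**Figure D4:**
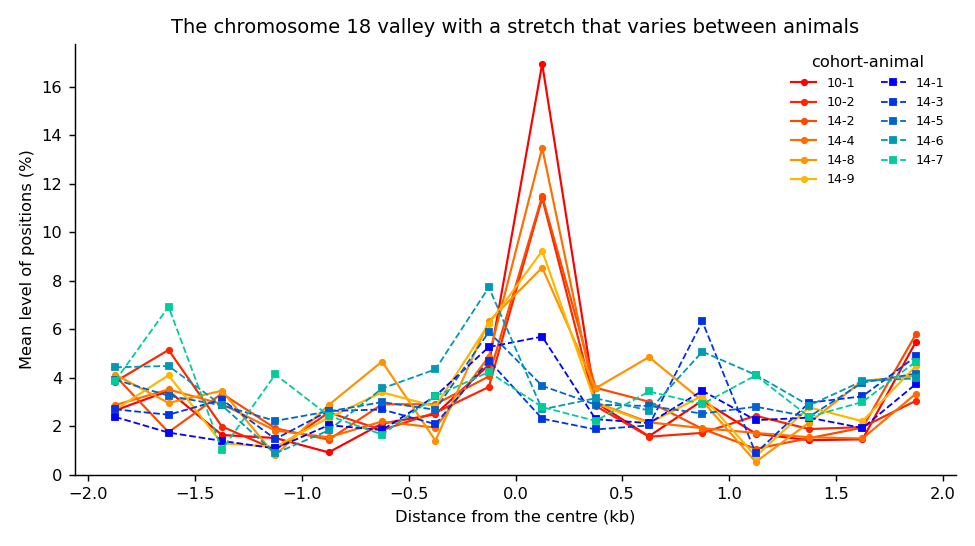
The chromosome 18 valley by animal. The x axis is the distance from the valley's centre in kb and the y axis the mean level of positions in %; solid lines are the 6 animals over 10% in the short run and dashed lines the other 5. The animals part near the centre of the valley, where the run has 2.13% to 19.1%, while the rest of the valley, summed to 1 level per animal, has 1.79% to 3.19%; single windows outside the run are wider spread.

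The study's main question is whether levels before drinking relate to later intake. No valley had an adjusted p under 0.05 in a moderated quasi-binomial model with cohort as a covariate (Benjamini-Hochberg over all 135772 units, of which 0% were called; smallest adjusted p among valleys 0.99997). Without adjustment, 16 of 160 valleys (10%) had p under 0.05, all with higher levels at higher intake, against 3.1% of all units, 2.03% higher and 1.07% lower. On the model's logit scale, slopes were above 0 in 155 valleys (96.9%), against 56.6% of all units. The share was 78.2% in single regions and 88.6% in shorter merged stretches. Of the 3832 shorter merged stretches, 170 (4.44%) had an unadjusted p under 0.05, all with higher levels at higher intake. The median slope was 0.212 percentage points per unit of intake, with a median standard error of 0.152. It was 0.188 in shorter merged stretches and 0.188 in single regions, with median standard errors of 0.189 and 0.260. The lean was thus not particular to valleys. Many valleys thus leaned the same way by a small amount, and no single valley passed. With limma on logit levels, 0 valleys passed adjustment and 1 had an unadjusted p under 0.05, against 3.54% of all units.

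The lean was smaller with the animals' shared level in the model. The animal's mean level of single regions was added as a further covariate. On the logit scale 101 of 160 slopes (63.1%) were then above 0, against 54.6% of all units. The median slope was 0.0324 points, and 2 valleys (1.25%) had an unadjusted p under 0.05, against 3.54% of all units. This covariate had r = 0.991 with the mean of valleys across the 11 animals. It is thus nearly a copy of what the valleys share, and the smaller lean says little about intake. The count of 16 moved with the settings and with single animals. It was 26 with 1 and 2 taken from the counts (3.21% of all units) and 3 with intake in 2 classes, at 3 or more and under 3 (5% of all units). In the 2 classes the valleys' share was below that of all units. Without animal 4 of cohort 14, the lowest in intake, the count was 1 (3% of all units), and without animal 2 of cohort 14 it was 5 (2.69%). In cohort 14 alone it was 5 (2.68%), and without animal 6 of cohort 14 it was 7 (3.11%). It was 26 without animal 1 (3.25% of all units) and 39 without animal 8 of cohort 14 (3.25%). Without animals 3, 6, 7 and 8 of cohort 14 it was 30 (3.87%). No valley separated the classes. In the 5 animals with an intake of 3 or more the mean over valleys was 3.25% ± 0.304, and in the 6 animals under 3 it was 3.07% ± 0.433 (SD), with overlapping values. The 95% interval of the slope stayed within 1 point per unit in 159 of the 160 valleys, with a median half-width of 0.351 points.

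**Figure D5:**
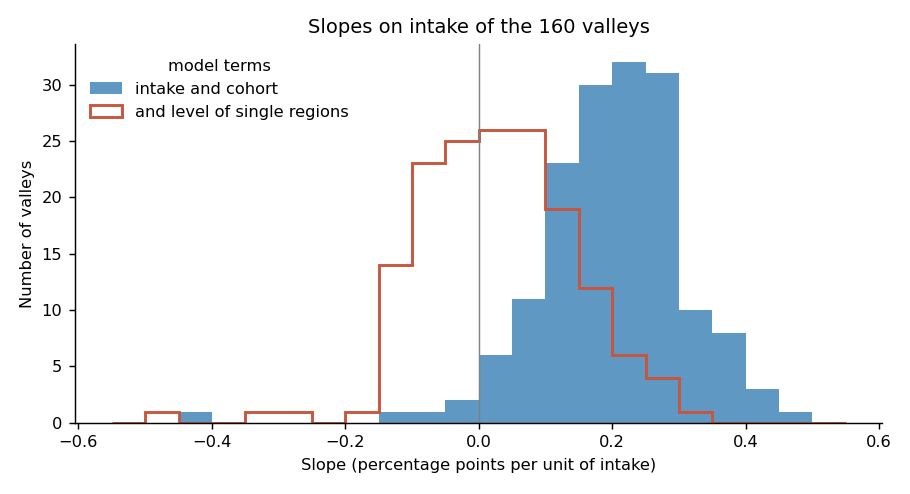
Slopes of the valley level on intake. The x axis gives slopes, as percentage points of level for 1 unit of intake, and the y axis the number of valleys; filled bars are from the model with intake and cohort, and the outline is from the model that also holds the animal's level of single regions. The filled bars centre on 0.212, and the outline centres on 0.0324. On the models' logit scale, which is not drawn, 155 of 160 slopes were above 0 in the first model and 101 in the second.

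The valleys with the smallest p in the upward direction had small differences. In chr9:75152065-75155413 the lowest, median and highest levels were 2.88%, 3.61% and 4.01% in animals with intake of 3 or more, and 2.36%, 3.06% and 3.71% in animals under 3. The groups overlapped, and the slope was 0.413 ± 0.100 points per unit (SE; unadjusted p = 0.00425 and adjusted p = 0.99997, moderated quasi-binomial model, not passed). In chr2:39907573-39910782 the levels averaged 4.16% ± 0.314 in animals with intake of 3 or more (SD) and 3.74% ± 0.476 in animals under 3, again with overlap. The other 3 were chr9:87645342-87648608 with a slope of 0.459 ± 0.140, chr18:62202534-62206523 with 0.352 ± 0.105 and chr5:182325914-182329893 with 0.273 ± 0.0852 (SE).

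Only 5 valleys had a slope below 0, and none passed. The steepest was the chromosome 18 valley with the variable run, at -0.436 ± 0.251 points per unit (SE; unadjusted p = 0.0809, moderated quasi-binomial model). Its animals with intake of 3 or more averaged 3.11% ± 0.280 and those under 3 averaged 3.60% ± 0.859 (SD), with overlap. The next, chr2:86985704-86988780, had -0.130 ± 0.170. The slopes of chr1:189445750-189448941, chr20:9120641-9124004 and chr17:65732125-65736041 were -0.0533, -0.0303 and -0.0185, each well inside its standard error.

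Between cohorts no valley passed adjustment in the same model (0% of all units called). Without adjustment 39 valleys (24.4%) had p under 0.05, all lower in cohort 10, against 3.06% of all units, 2.33% lower and 0.735% higher. The median difference was -0.530 points. In 36 valleys (22.5%) both animals of cohort 10 were below every animal of cohort 14. The share was 3.3% of all units, 11.9% of single regions and 19.8% of shorter merged stretches. Of the shorter merged stretches, 503 (13.1%) had an unadjusted p under 0.05, all lower in cohort 10. The valley with the smallest p was chr1:131700435-131704372, at a difference of -0.858 ± 0.204 points (SE; unadjusted p = 0.00220, adjusted p = 0.999996, moderated quasi-binomial model).

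The count of cohort differences moved with how the counts were read and with the animals. With 1 and 2 taken from the counts, 102 valleys (63.75%) had an unadjusted p under 0.05, against 4.08% of all units. The shares were 33.8% in shorter merged stretches and 11.4% in single regions. With the animal's level of single regions as a covariate there were 10 valleys (6.25%, against 3.19% of all units). With both changes there were 5 (3.125%), near the 3.6% of all units. In both fits the covariate closely follows the mean of valleys, so the smaller counts say little about the cohorts. With limma on logit levels 15 valleys had an unadjusted p under 0.05, against 4.71% of all units. Leaving out animal 1 or animal 2 of cohort 10 leaves 1 animal there, which is assumed to vary like those of cohort 14. Without animal 1, the difference on the logit scale was above 0 in 15 of the 160 valleys. Without animal 2 it was above 0 in 2 valleys, and with all animals in 3. Without animals 3, 6, 7 and 8 of cohort 14, 28 valleys had an unadjusted p under 0.05, against 3.47% of all units. The means over valleys were 2.68% ± 0.358 in cohort 10 (SD, n = 2) and 3.26% ± 0.301 in cohort 14 (SD, n = 9), and animal 2 of cohort 10, at 2.94%, lay inside the range of cohort 14.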

How the data were processed

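DNA methylation was measured by bisulfite sequencing of captured DNA from 11 animals, 1 library each. Reads were processed with FastQC and Bismark, per the submitters' processing notes. Versions, genome build and filters: not given in the sources used here. In the tables for the series the authors deposited whole-number counts per position, methylated and total; 5 columns of these tables belong to no listed sample and were not used. A level is 100 times methylated over total counts, summed over a region. Reads include PCR copies, so precision from depth covers counting error only. Each label gives another age or EtOH value, so libraries were taken as separate animals.

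Members and lists were chosen with earlier results of these data known. Positions with a total under 10 in any animal would have been left out; none was. The named regions are the 10 longest valleys, the 5 with the widest range between animals, the 5 with the smallest p on intake in each direction, valleys chained within 50 kb, and stretches within 100 bp of the length threshold.

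Intake and cohort were tested in 1 quasi-binomial logistic model per unit over all 135772 units (regions, with kept ones merged), with dispersions moderated by limma's squeezeVar (prior degrees of freedom 3.92, residual 8) and Benjamini-Hochberg adjustment at 0.05. Slopes in percentage points are least-squares fits of the level on the same terms. Counts of slopes or differences above or below 0 are of the model's logit coefficients. Depth, surroundings and unused positions were compared within animals by sign-flip permutation over all 2048 assignments. The model was tested on simulated data. Alternatives changed the level, gap, split and coverage limits, the counts taken off, the model, the covariates and the animals. Leaving out animals 3, 6, 7 and 8 of cohort 14 together, single regions of 900 bp or more, shorter stretches as the comparison, means over sides, leaving out bordering regions or positions up to 1500 bp outside, and the fit with 2 changes at once were chosen after seeing the data. R 4.3.3 with limma 3.58.1 and Python 3.11.15 with pandas 2.3.3, scipy 1.17.1 and numpy 2.4.6 were used.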

Additional observations from a re-analysis of the deposited data

Results flagged for a closer look

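Levels of 27 sets of 9 animals (cohort 14) were checked for a single animal far from the others, and 3 were found. Chance alone gives about 1 in 20 for sets not picked by their spread. Some sets were valleys named for a wide range between animals, so this rate does not hold for them. In the longest valley, chr3:38527358-38535437, animal 6 had 3.61%, against 2.53% to 3.03% in the other 8. In the sparsest valley, chr17:65732125-65736041, animal 8 had 4.21%, against 2.71% to 3.42%. In chr20:54432204-54435237, the valley with the widest range between animals, animal 6 had 4.78%, against 2.87% to 3.65%. Both animals are among the 4 with many positions raised in 1 animal alone; the part of those positions in these values was not tested.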

How the results depend on the processing

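The number of valleys followed the rule's limits: 37 with a level under 3%, 421 with a level under 10%, 54 with a gap of at most 200 bp and 92 with a coverage minimum of 50, against 160. The other settings gave 140 to 222, and leaving out 1 animal gave 155 to 165. The share of valleys under 5% in a left-out animal was at least 97.0%, and 100% with 1 and 2 taken from the counts. The mean difference in level between valleys and single regions was -0.147 points as deposited and 0.130 with 1 and 2 taken from the counts (-0.153 to -0.137 without 1 animal). Depth (34.9 to 38.2), surroundings with bordering regions included (-9.75 to -9.64) and unused positions (-71.7 to -71.4) kept direction and call without any 1 animal and under each other setting run. For surroundings with bordering regions included, the difference with all animals was -9.67. The tested difference without bordering regions, -9.35, was not refitted without single animals. No valley passed adjustment for intake or cohort under any setting, limma on logit levels included. Of 200 refits of the named slopes, 14 changed sign, all in 4 valleys whose slopes were within 1 standard error of 0, and none passed; the cause was not tested. On the logit scale these were 0.00369 with 1 and 2 taken from the counts, 0.00239 at a coverage minimum of 50, 0.0172 with no covariate and 0.0612 without animals 3, 6, 7 and 8 of cohort 14 for chr17:65732125-65736041; 0.00155 with no covariate and 0.0154 without those 4 animals for chr1:189445750-189448941; 0.00418 with 2 intake classes for chr20:9120641-9124004; and 0.00855 without those 4 animals for chr2:86985704-86988780. Without 1 animal they ran from -0.0374 to 0.0423, -0.0554 to 0.0259 and -0.0544 to 0.0267 in the first 3. No paired analysis was possible because accession order alone set the animals' numbers, which link none across cohorts. Nothing measured lies next to 43.1% of valley edges, which limits what can be said of lengths and surroundings.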

Other observations

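The windows with the widest range between animals lay at valley edges. At the edge window chr12:89353354-89353487, with 21 positions, animal 8 of cohort 14 had 21.6% and the other 10 animals had 7.67% to 12.5%. Inside valleys, animal 7 of cohort 14 had 9.88% and animal 3 of cohort 14 had 8.26% at chr14:11470117-11470609, against 2.50% to 5.31% in the other 9. At chr2:99909727-99910162 animal 7 of cohort 14 had 9.55%, against 2.60% to 4.75% in the other 10. These windows were chosen after their values were seen. Over all 500-bp windows, the range passed 5 points in 40 of 1136 in valleys (3.52%) and in 862 of 12434 in single regions (6.93%).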
